A study of Sus scrofa with 6 samples.

Results

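GDF9, BMP15, BMP6 and INHBA encode ligands of the TGF-beta family. RNA levels under these names were measured by RNA sequencing in pig oocytes that were matured in vitro with or without heat stress. The 4 were chosen by gene name from the table of 29861 genes, and all 4 names were found, but the row named INHBA was not a coding gene model. A control group was compared with a heat-stressed group and with an NMN-supplemented group, which received heat stress together with nicotinamide mononucleotide (NMN), a precursor of the coenzyme NAD+. Each group had 2 samples of pooled oocytes, labelled replicates 1 and 2, so 6 samples were measured. All groups shared the in vitro maturation culture. By the study's methods its medium held EGF, insulin, porcine follicular fluid, eCG and hCG among its additives. No allele is named for any group, and no agent but NMN is named as differing between them. The labels give a culture time of 24 h and the germinal vesicle (GV) stage, while the study's methods describe metaphase II oocytes. Nothing in the labels says that the 2 samples of a group came from separate cultures, so the P-values measure only the spread between these samples, which may be technical.

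TGF-beta family ligands are made as long precursors, cut to release a mature C-terminal domain, and secreted as dimers. A dimer brings together type I and type II receptor kinases, which phosphorylate SMAD proteins that then act on transcription in the nucleus. GDF9 and BMP15 are the signature ligands of the oocyte. They act on the surrounding cumulus and granulosa cells, where they promote proliferation, cumulus expansion and metabolic support of the oocyte, and they can also pair with each other. GDF9 signals through SMAD2 and SMAD3, and BMP15 through SMAD1, SMAD5 and SMAD8. BMP6 is a bone morphogenetic protein also made by oocytes, and INHBA encodes the activin A subunit, which in the follicle is mainly a product of granulosa cells.

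The family fold is a cysteine knot, and most members carry 1 further cysteine that joins both chains of the dimer covalently. GDF9 and BMP15 lack that cysteine, so their dimers are held together without a disulfide bond. The stretch of coding sequence around that position is shown because GDF9 and BMP15 part there from BMP6 and INHBA. Each line holds 36 bases (12 codons) of the coding strand, 5′ to 3′, from the Sscrofa11.1 genome with its RefSeq annotation, with cysteine codons in capitals.
GDF9: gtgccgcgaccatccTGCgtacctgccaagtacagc
BMP15: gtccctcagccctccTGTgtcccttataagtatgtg
BMP6: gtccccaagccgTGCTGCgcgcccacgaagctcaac
INHBA: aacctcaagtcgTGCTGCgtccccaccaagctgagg
The GDF9 bases are chr2:135181584-135181619 on the minus strand. The others lie on plus strands, at chrX:44619237-44619272 for BMP15, chr7:5208743-5208778 for BMP6 and chr18:52900277-52900312 for INHBA. GDF9 and BMP15 had 1 cysteine codon in this window, and BMP6 and INHBA had 2. Over the last 120 codons before the stop codon, GDF9 and BMP15 held 6 cysteine codons each, BMP6 held 7 and the INHBA copy on chromosome 18 held 9.

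The annotated gene models behind these measurements differed in kind. GDF9 was annotated at chr2:135181494-135184451 on the minus strand, as 2 exons of 1335 bases in all. All of these bases are coding, so the model has no UTR and reads from the UTRs of GDF9 had no annotated exon to fall in. BMP15 was annotated at chrX:44613122-44620575 with 2 exons of 2475 bases, of which 1209 are coding and 1266 are not. BMP6, at chr7:5058817-5208868, had 7 exons of 1643 bases, of which 1518 are coding.

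The row named INHBA was not a coding gene model. Its coordinates, chr12:53115379-53117128, are those of a partial feature with 1 exon of 1750 bases and no coding sequence, 2112 bases from its nearest annotated neighbour. The coding copy of INHBA lies elsewhere, at chr18:52889684-52909260, with 6 exons of 2139 bases, of which 1275 are coding. The beginnings of both are shown to set the fragment beside the coding sequence that carries the same name.
INHBA row, first 30 bases of chr12:53115379-53115408: cacacacacacacacacacacacacacaca
INHBA coding copy, first 30 coding bases of chr18:52889717-52889746: atgcccttgctttggctgagaggatttttg
The fragment on chromosome 12 thus opened with a CA repeat. Repeat-masked bases made up 22.2% of it and 23.5% of the exons of the chromosome 18 copy. A blastn search found 0 matches of the chromosome 18 coding sequence in it (E value limit 0.001). The 864 non-coding exon bases of the chromosome 18 copy were not searched, so a match to them was not tested. Part of the fragment, between its bases 341 and 630, matched 2942 other sites on chromosome 12 over at least 200 bases at 90% identity or more. Whether reads from the coding copy were counted in this row is not given in the sources used here. Its values are therefore reported as those of the row named INHBA, and nothing about activin A is read from them.

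**Figure D1:**
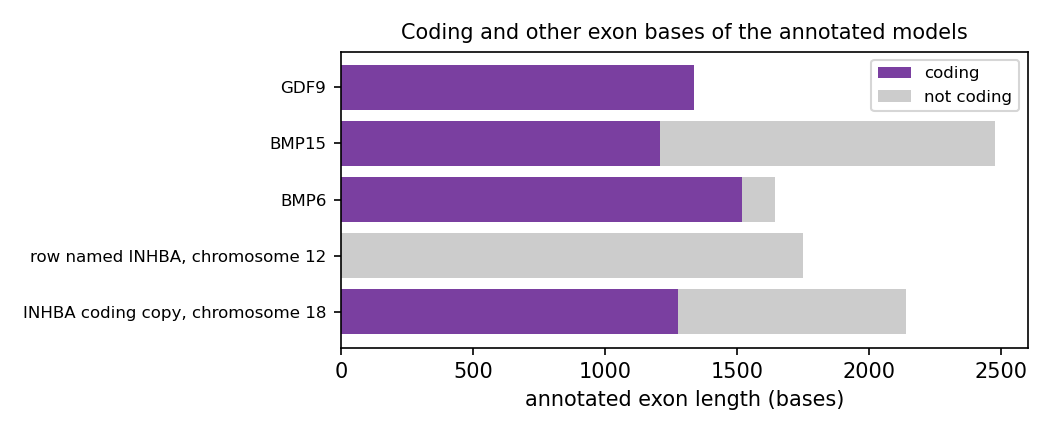
Annotated exon length in bases (x axis) of the 4 ligand rows and of the INHBA coding copy on chromosome 18, split into coding (purple) and other (grey) bases. The GDF9 model is coding throughout (1335 bases), and the row named INHBA has no coding base in its 1750.

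The unit of the table is FPKM, in which the fragments on a gene are divided by its transcript length, so it is a level per length. They are also divided by a measure of library size, which is not given in the sources used here. BMP15 and GDF9 were among the most abundant messages of the oocyte. Among all 29848 genes not encoded by mitochondrial DNA, BMP15 stood between rank 1 and rank 3 in every sample. GDF9 held rank 7 and rank 8 in the control oocytes, rank 14 and rank 9 in the heat-stressed oocytes, and rank 16 and rank 18 in the NMN-supplemented oocytes. BMP6 stayed below 1 FPKM, between rank 7495 and rank 9984, and the row named INHBA was at rank 567 to rank 1907. In order of level per length, BMP15 was above GDF9, GDF9 above the row named INHBA and that row above BMP6 in each of the 6 samples, so no neighbours in this order overlapped.

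The control samples held 732 and 777 FPKM of GDF9, the heat-stressed samples 477 and 532, and the NMN-supplemented samples 435 and 353. Both heat-stressed samples lay below both controls, and both NMN-supplemented samples lay below all others. The means were 754 ± 31.7, 504 ± 39.0 and 394 ± 58.0 FPKM (SD, n = 2 each). GDF9 thus fell from control to NMN-supplemented oocytes to 52.2% of the control level, a difference of -0.94 on the log2(FPKM + 1) scale (SE 0.15, 95% interval -1.31 to -0.58, limma adjusted P = 0.0219). Heat-stressed oocytes held 66.9% of the control level, a log2 difference of -0.58 (95% interval -0.95 to -0.22, limma unadjusted P = 0.00850), but this did not pass the adjustment over all genes tested (limma adjusted P = 0.137). NMN-supplemented oocytes held 78.1% of the heat-stressed level, a log2 difference of -0.36 (95% interval -0.73 to 0.0025, limma adjusted P = 0.360), and of -0.21 without NMN-supplemented sample 2. This difference reversed to 0.027 with the samples scaled to the same sum without mitochondrial genes. In RNA from pooled oocytes, fewer cells of a type and less RNA per cell cannot be told apart.

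The fall of GDF9 from control to NMN-supplemented oocytes lost its call in 7 of 17 alternative settings. The adjusted P was 0.0505 with genes down to a mean of 0.1 FPKM tested, 0.0861 with all detected genes tested, and 0.244 with the samples scaled to the same sum without mitochondrial genes. Leaving out either control sample or either NMN-supplemented sample gave an adjusted P between 0.0513 and 0.114.

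For BMP15 the control samples held 1606 and 1646 FPKM, the heat-stressed samples 1861 and 1941, and the NMN-supplemented samples 1820 and 1751. Both heat-stressed samples lay above all others, and both controls lay below all others. The means were 1626 ± 28.6, 1901 ± 56.3 and 1785 ± 48.7 FPKM (SD, n = 2 each). No comparison of BMP15 passed the test. The log2 difference was 0.22 between heat-stressed and control oocytes (95% interval -0.049 to 0.50, limma adjusted P = 0.283). It was 0.13 between NMN-supplemented and control oocytes (95% interval -0.14 to 0.41, limma adjusted P = 0.396). Against heat-stressed oocytes, NMN-supplemented oocytes differed by -0.090 (95% interval -0.36 to 0.18, limma adjusted P = 0.683). Against control, both intervals of BMP15, fitted on the values as deposited, leave out a difference as far below 0 as that estimated for GDF9. This does not test GDF9 against BMP15 and need not hold under other scalings. The direction of BMP15 depended on scaling for the heat-stressed samples. Its heat-stressed minus control difference was -0.036 after quantile normalization and -0.15 with the samples scaled to the same sum without mitochondrial genes.

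For BMP6 the control samples held 0.207 and 0.174 FPKM, the heat-stressed samples 0.261 and 0.247, and the NMN-supplemented samples 0.224 and 0.304. All 4 samples under heat stress lay above both controls, and the heat-stressed and NMN-supplemented samples overlapped. At these levels BMP6 was below the minimum mean of 1 FPKM for testing. Of the genes tested, 54.7% had no overlap between heat-stressed and control samples and 69.9% between NMN-supplemented and control samples. No such share was counted for genes as low as BMP6. When genes down to a mean of 0.1 FPKM were tested, the log2 difference was 0.075 between heat-stressed and control oocytes (limma adjusted P = 0.605) and 0.086 between NMN-supplemented and control oocytes (limma adjusted P = 0.443). Neither passed the test, and the number of reads behind these values is unknown.

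In the row named INHBA the control samples held 16.4 and 13.2 FPKM, the heat-stressed samples 10.2 and 6.44, and the NMN-supplemented samples 4.35 and 10.2. Both controls lay above the other 4 samples, among which the 2 groups overlapped. The means were 14.8 ± 2.25, 8.30 ± 2.62 and 7.28 ± 4.14 FPKM (SD, n = 2 each). The log2 difference from control was -0.78 in heat-stressed oocytes (95% interval -1.75 to 0.18, limma adjusted P = 0.288) and -1.02 in NMN-supplemented oocytes (95% interval -1.99 to -0.051, limma adjusted P = 0.109). Neither passed the test. Single samples moved these differences, the first to -0.49 without heat-stressed sample 2, and the second to -0.49 without NMN-supplemented sample 1 and to -1.55 without NMN-supplemented sample 2.

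**Figure D2:**
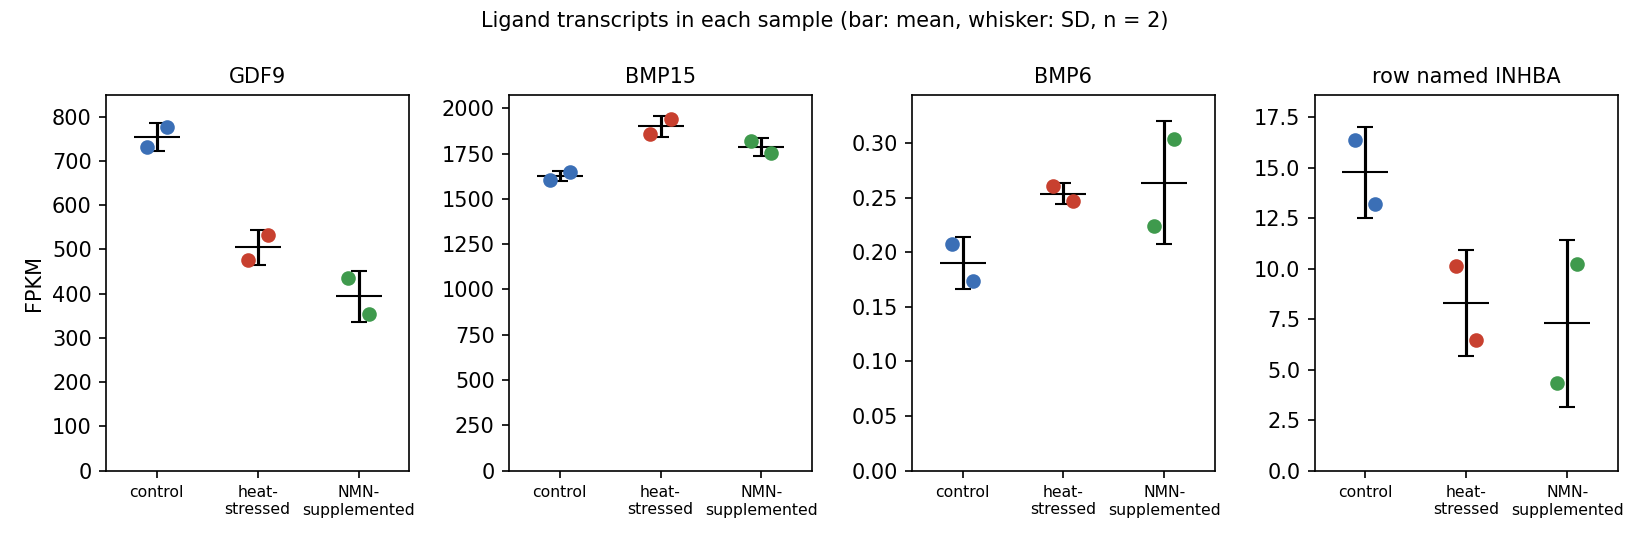
FPKM (y axis, from 0, a separate scale for each panel) of the 4 ligand rows in the samples of each group (blue for control, red for heat-stressed, green for NMN-supplemented), with bars at the mean and whiskers of 1 SD (n = 2). The mean of GDF9 is 754 FPKM in control, 504 in heat-stressed and 394 in NMN-supplemented oocytes. Of its comparisons only NMN-supplemented against control passed an adjusted P of 0.05 in limma. BMP15 stays between 1606 and 1941 FPKM.

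These outcomes stand against a background that differed between the comparisons, which share samples with one another. For heat-stressed against control oocytes no gene (0%) passed an adjusted P of 0.05 in limma, while 1074 genes (22.8%) reached an unadjusted P below 0.05, 598 with higher (12.7%) and 476 with lower values (10.1%). GDF9 was 1 of those lower. For NMN-supplemented against heat-stressed oocytes none (0%) passed the adjusted test in limma, and 641 genes (13.6%) had an unadjusted P under 0.05, with 7.15% higher and 6.45% lower. None of the 3 ligand rows tested was among them. In each of these comparisons 1 gene passed the adjusted test when no trend of the variance was fitted.

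For NMN-supplemented against control oocytes, 1015 of the 4713 genes tested (21.5%) passed the adjusted test, 583 higher (12.4%) and 432 lower (9.17%). Of the 3 ligand rows tested, 1 passed it, GDF9, and it was among those lower. At an unadjusted P under 0.05 there were 41.3% of all genes, 25.6% higher and 15.7% lower, and GDF9 and the row named INHBA were among those lower. The row named INHBA had such a P in 11 of 17 alternative settings, and GDF9 in all 17.

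With 2 samples per group, values that do not overlap were common. In the heat-stressed and control samples, all 3 ligand rows tested had groups that did not overlap, as did 54.7% of all genes tested, with 31.6% higher and 23.2% lower under heat stress. In the NMN-supplemented and control samples all 3 did so too, as did 69.9% of all genes, with 43.5% higher and 26.4% lower. GDF9 and BMP15 also did not overlap in the comparison of NMN-supplemented with heat-stressed samples, beside 53.5% of all genes, with 35.9% higher and 17.6% lower. The median log2 difference of all genes tested was 0.049 for heat-stressed against control, 0.078 for NMN-supplemented against heat-stressed and 0.11 for NMN-supplemented against control oocytes.

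**Figure D3:**
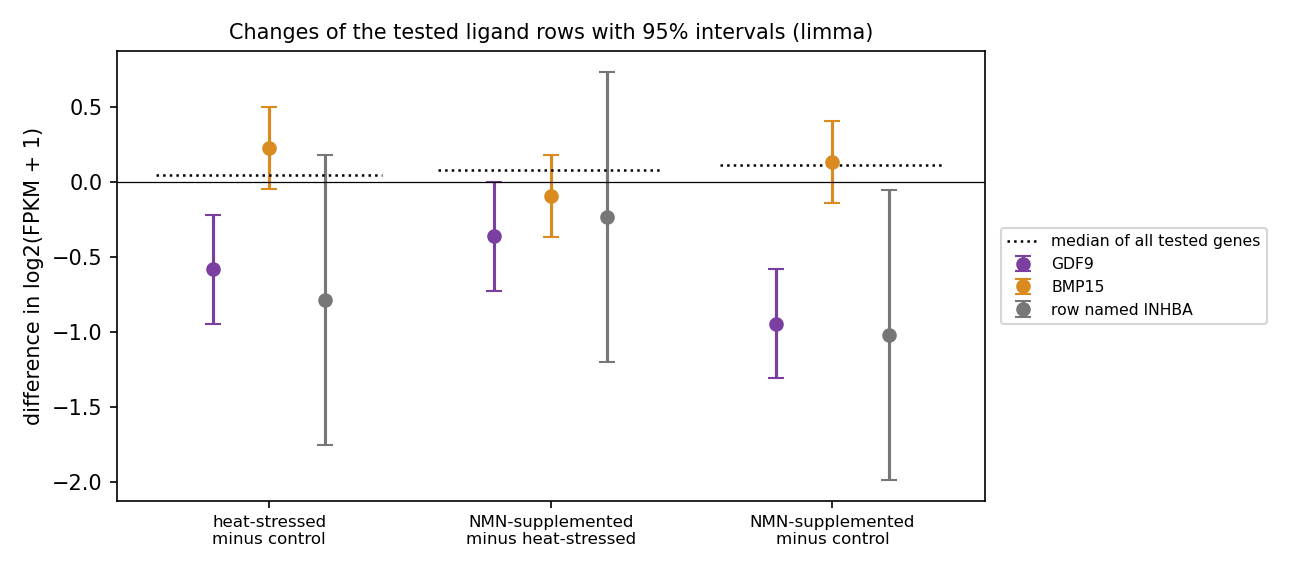
Difference in log2(FPKM + 1) (y axis) of GDF9, BMP15 and the row named INHBA in each of the 3 comparisons (x axis), with 95% intervals from limma and a dotted line at the median of all 4713 genes tested. Only the interval of GDF9 lies below 0 between heat-stressed and control oocytes, from -0.95 to -0.22.

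GDF9 was also set beside other abundant messages. Of the 72 genes tested with a mean of at least 100 FPKM that are not encoded by mitochondrial DNA, 67 had a higher log2 difference than GDF9 for heat-stressed against control oocytes, and the median of the 72 was 0.058. For NMN-supplemented against control oocytes 65 of them stood above GDF9, and the median was 0.052. BMP15 lay nearer the middle of the same genes, with 21 above it for heat-stressed and 26 above it for NMN-supplemented oocytes, each against control. For NMN-supplemented against heat-stressed oocytes 57 stood above GDF9 and 45 above BMP15, and the median was -0.013.

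The ratio of GDF9 to BMP15 compares the oocyte pair within each sample and is not changed by multiplying a sample by a factor. Quantile normalization, which is no such factor and was chosen after seeing the data, left the direction but changed the size. The control samples gave ratios of 0.456 and 0.472, the heat-stressed samples 0.256 and 0.274, and the NMN-supplemented samples 0.239 and 0.201. The groups did not overlap in any comparison, and the step from control to either group under heat stress was wider than the spread within any group. Of single genes tested, 54.7% had no overlap between heat-stressed and control samples and 53.5% between NMN-supplemented and heat-stressed samples. Between NMN-supplemented and control samples the share was 69.9%, and no share was counted for ratios of other gene pairs. Mean ratios of GDF9 to BMP15 were 0.464 ± 0.0113, 0.265 ± 0.0127 and 0.220 ± 0.0265 (SD, n = 2 each). The ratio in heat-stressed oocytes was 0.572 times that of controls (log2 difference -0.81), and in NMN-supplemented oocytes it was 0.473 times that of controls (log2 difference -1.08) and 0.828 times that of heat-stressed oocytes (log2 difference -0.27). After quantile normalization these log2 differences were -0.38, -0.87 and -0.49. The difference between NMN-supplemented and heat-stressed oocytes was -0.15 without NMN-supplemented sample 2. An exact two-sided permutation test gave P = 0.333 for each comparison, the smallest value that 2 samples against 2 allow. Such a test could therefore not reach a P of 0.05 whatever the size of the difference.

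The FPKM of GDF9 and BMP15 summed to 2338 and 2423 for the control samples, to 2338 and 2472 for the heat-stressed samples, and to 2254 and 2104 for the NMN-supplemented samples. The NMN-supplemented samples lay below the other 4, among which control and heat-stressed samples overlapped. GDF9 made up 31.3% and 32.1% of that sum in the controls. Heat-stressed samples had shares of 20.4% and 21.5%, and NMN-supplemented samples of 19.3% and 16.8%.

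**Figure D4:**
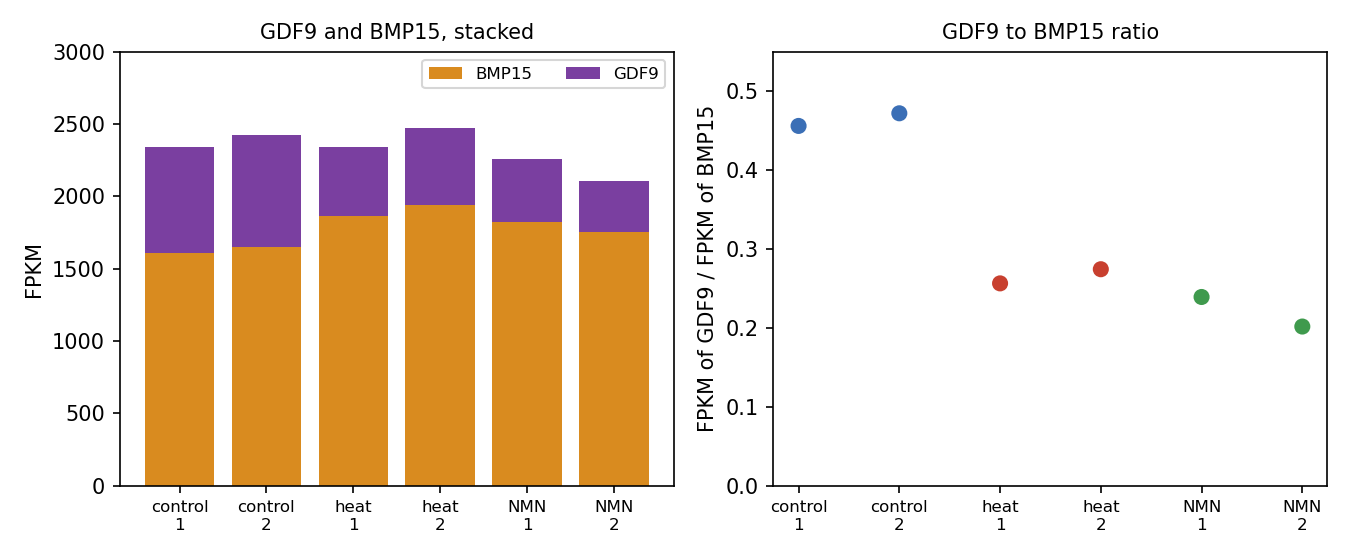
Left, FPKM of BMP15 (orange) and GDF9 (purple) stacked for each of the 6 samples, which are named by group and replicate (NMN: NMN-supplemented under heat stress). Right, the ratio of GDF9 to BMP15 FPKM in the same samples, which lies at 0.456 and 0.472 in the controls and at or below 0.274 in the other 4 samples.

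The genes whose pattern over the 6 samples lay nearest to that of each ligand were found by the root mean square distance between log2(FPKM + 1) values centred on their own mean, over 4712 other genes. That scale understates changes of low genes, so nearness on it is not an equal fold change. Nearest to GDF9 were CCDC160 (distance 0.082), EXOSC5, a subunit of the RNA exosome (0.089), and LOC100737817 (0.094). CCDC160, for example, was measured at 2.88 and 3.59 FPKM in the controls, 1.69 and 2.02 under heat stress alone, and 1.49 and 1.26 under heat stress with NMN. Nearest to BMP15 were DSTN, which encodes the actin-depolymerizing protein destrin (0.043), the magnesium transporter gene NIPA2 (0.043) and the phosphatase gene PTP4A2 (0.044). Nearest to the row named INHBA, at wider distances, were CRB3 (0.18), ABHD17A (0.20) and LOC110261558 (0.20).

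The rest of the pathway was followed through 94 genes in 8 lists, of which 91 were in the table. For 14 of them the listed value was 0 in all 6 samples, and 18 had a mean of at least 1 FPKM and were tested. Between NMN-supplemented and control oocytes 3 of these rose and 2 fell at an adjusted P under 0.05, beside 21.5% of all genes tested, and 0 passed in the other comparisons by limma. At a minimum of 5 FPKM 2 of the 5 calls were left, because ACVR2B, FSTL3 and BMP8A lay below that minimum and were not tested. The 5 calls became 0 with genes down to a mean of 0.1 FPKM or all detected genes tested, and 1 with the samples scaled to the same sum without mitochondrial genes. They also became 0 without control sample 2, without NMN-supplemented sample 1 or without NMN-supplemented sample 2, where the adjusted P of the 5 genes lay between 0.0968 and 0.208. At an unadjusted P under 0.05 there were 4 higher and 3 lower between heat-stressed and control oocytes, beside 22.8% of all genes, and 2 higher and 1 lower for NMN-supplemented against heat-stressed oocytes, beside 13.6%. For NMN-supplemented against control oocytes there were 6 higher and 4 lower, beside 41.3% of all genes. The median log2 difference of the 18 was 0.079, 0.10 and 0.099 in the comparisons of heat-stressed with control, NMN-supplemented with heat-stressed, and NMN-supplemented with control oocytes.

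Of 28 other ligand genes in the table, 10 were listed at 0 throughout and 4 were tested. BMP8A, a bone morphogenetic protein gene, fell from 1.51 and 1.56 FPKM in the controls to 0.624 and 0.894 in NMN-supplemented oocytes (log2 difference -0.53, limma adjusted P = 0.0481), with 1.06 and 1.28 in heat-stressed oocytes. This call was lost in 15 of 16 alternative settings, among them each other scaling and each left-out sample, with an adjusted P of up to 0.409. NODAL, the activin-like ligand of early embryo patterning, was measured at 2.13 and 2.43 FPKM in the controls, 0.746 and 0.999 in heat-stressed oocytes, and 1.40 and 0.667 in NMN-supplemented oocytes. Its log2 difference from control was -0.81 under heat stress (limma adjusted P = 0.137) and -0.71 with NMN (limma adjusted P = 0.0600). GDF1 was the most abundant of the 4, at 16.6 to 24.1 FPKM, and BMP4 lay at 4.10 to 5.15 FPKM. Neither passed the test in any comparison. INHA, the inhibin alpha subunit that pairs with the product of INHBA to form inhibin, was listed at 0 in all 6 samples.

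Of 14 receptor genes 2 were tested. ACVR2B, a type II receptor for activins and related ligands, rose from 3.22 and 2.23 FPKM in the controls to 6.33 and 6.39 in NMN-supplemented oocytes (log2 difference 0.99, limma adjusted P = 0.0219). It was measured at 4.26 and 4.11 FPKM in heat-stressed oocytes, between the other groups (limma adjusted P = 0.175 against control). The type I activin receptor gene ACVR1B ranged from 3.97 to 6.67 FPKM and did not pass the test in any comparison. The receptors through which GDF9 and BMP15 signal, encoded by BMPR2, BMPR1B and TGFBR1, stayed below 1 FPKM in every sample, at most 0.366, 0.435 and 0.891 FPKM.

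SMURF2 and PPM1A, which act inside the cell to dampen SMAD signals, were the 2 tested genes of the 12 SMAD regulators, and both rose between NMN-supplemented and control oocytes. SMURF2, a ubiquitin ligase for SMADs and receptors, went from 3.96 and 3.15 FPKM in the controls to 7.78 and 7.44 in NMN-supplemented oocytes (log2 difference 0.92, limma adjusted P = 0.0210). PPM1A, a phosphatase that acts on receptor-activated SMADs, went from 4.09 and 3.39 FPKM to 7.81 and 7.82 (log2 difference 0.90, limma adjusted P = 0.0210). Heat-stressed oocytes lay above controls, at 5.88 and 5.95 FPKM for SMURF2 (limma adjusted P = 0.122) and 7.28 and 7.12 FPKM for PPM1A (limma adjusted P = 0.111), without passing the test. Of the 8 SMAD genes SMAD5 alone was tested, at 1.18 to 1.81 FPKM, and it did not pass in any comparison.

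Among the 10 extracellular inhibitors, FSTL3, which binds and neutralizes activins, fell from 5.37 and 8.75 FPKM in the controls to 2.21 and 2.63 in NMN-supplemented oocytes (log2 difference -1.21, limma adjusted P = 0.0256). It was measured at 4.06 and 3.999 FPKM in heat-stressed oocytes. GREM1, a bone morphogenetic protein antagonist made by cumulus cells, was measured at 2.48 and 1.73 FPKM in the controls and 3.58 and 3.55 in NMN-supplemented oocytes (log2 difference 0.57, limma adjusted P = 0.0531). The convertase gene FURIN, whose product cuts the ligand precursors, was measured at 3.25 and 3.58 FPKM in the controls, 2.55 and 1.63 in heat-stressed oocytes, and 2.08 and 1.85 in NMN-supplemented oocytes. It did not pass the test (limma adjusted P = 0.181 and 0.0659 against control).

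The oocyte transcription factor genes gave 3 tested of 6 in the table, and 0 passed at the adjusted threshold in limma, with 1 at an unadjusted P under 0.05, NR6A1 between NMN-supplemented and control oocytes. NR6A1 was measured at 0.928 and 0.920 FPKM in the controls, 1.12 and 1.30 in heat-stressed oocytes, and 1.55 and 1.51 in NMN-supplemented oocytes. Its log2 difference between NMN-supplemented and control oocytes was 0.39 (limma adjusted P = 0.0637). NOBOX, an activator of GDF9 and BMP15 transcription in oocytes, was measured at 2.31 and 3.75 FPKM in the controls, 1.63 and 2.68 in heat-stressed oocytes, and 2.01 and 1.63 in NMN-supplemented oocytes (limma adjusted P = 0.424 and 0.184 against control). LHX8, another such factor, lay at 4.38 to 5.37 FPKM. Of the BMP and SMAD target genes, ID3 was abundant, at 934 to 1249 FPKM. Its log2 difference from control was 0.091 in heat-stressed and 0.044 in NMN-supplemented oocytes, and neither passed the test. ID1 and ID4 were low and varied within groups. ID1 was measured at 0.578 and 3.81 FPKM in the controls, was listed at 0 and 1.13 in heat-stressed oocytes and lay at 0.543 and 1.46 with NMN (log2 differences from control -0.92 and -0.50). ID4 was measured at 0.246 and 1.70, 1.74 and 1.81, and 0.869 and 1.09 FPKM in the same order (log2 differences 0.60 and 0.11). Neither passed the test.

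**Figure D5:**
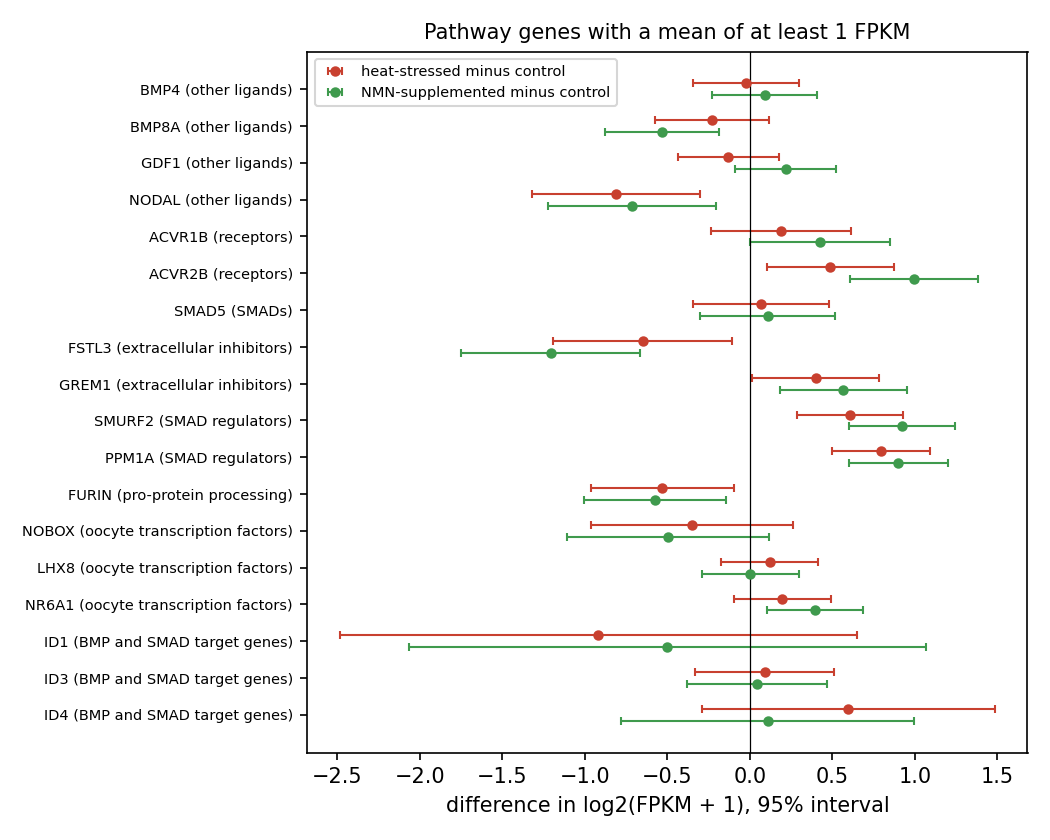
Difference in log2(FPKM + 1) from control (x axis) with 95% intervals for the 18 tested pathway genes in heat-stressed oocytes (red points) and in NMN-supplemented oocytes (green points). ACVR2B, SMURF2 and PPM1A rose and FSTL3 and BMP8A fell between NMN-supplemented and control oocytes.

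The samples were checked against markers and for composition. All 13 oocyte markers in the table were above 0 in every sample, led by MOS, H1FOO and DPPA3. Their summed FPKM was 1228 to 1414 in controls, 1041 to 1174 in heat-stressed and 941 to 1074 in NMN-supplemented oocytes, highest in the controls. MOS carried this order, and without it the sums were 383 to 482, 397 to 404 and 351 to 419 FPKM, which overlapped. Between NMN-supplemented and control oocytes 3 of the 11 tested fell (ZP3, ZP4 and ZAR1, named after their values were seen), beside 9.17% of all genes, and all 3 lost the call without control sample 2 or either NMN-supplemented sample (adjusted P of 0.0850 to 0.129). The 23 cumulus and granulosa markers, led by GREM1, KITLG and SERPINE2, summed to 5.86 to 6.95, 8.42 to 8.43 and 9.18 to 9.26 FPKM, with INHA, AMH, AREG and AMHR2 at 0 throughout. Group means of GREM1 (2.10, 3.07 and 3.56 FPKM) and KITLG (2.13, 2.89 and 3.39 FPKM) followed the order of these sums. Those of SERPINE2 did not (0.920, 0.902 and 0.782 FPKM), and no sum was taken without GREM1 and KITLG. KITLG rose between NMN-supplemented and control oocytes (limma adjusted P = 0.0363), a call lost in 11 of 16 alternative settings, among them each left-out sample (adjusted P of 0.0552 to 0.162). Genes encoded by mitochondrial DNA took 61.7% to 74.7% of all FPKM, and heat-stressed sample 1 stood apart in that 13.9% of its FPKM lay on LOC100513953 alone. The part of these differences in the values of the ligands was not tested.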

How the data were processed

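RNA from 6 samples of porcine oocytes was sequenced, 2 for each of the control, heat-stressed and NMN-supplemented groups, which were taken from the labels. Per the labels mRNA was purified from total RNA, according to the methods the authors trimmed and aligned the reads, and the submitters' processing notes name Cufflinks 2.2.1, Cuffnorm and Cuffdiff. The authors deposited FPKM values per gene and sample, whose scaling across samples is not given in the sources used here. The authors' own fold changes, P-values and group values were not used. Depth is unknown, so precision rests on the 2 samples per group.

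Values were transformed to log2(FPKM + 1), which understates changes of low genes. Genes with a mean of at least 1 FPKM (4713) were fitted with limma 3.58.1 in R 4.3.3, with 1 model of 3 groups over 6 samples and a variance trend, and P-values were adjusted by Benjamini-Hochberg over all genes tested. A call was an adjusted P under 0.05. The fit was tested on simulated data. Intervals are at 95%. BLAST 2.17.0 and the RefSeq annotation of Sscrofa11.1, the build of the files, gave sequences and loci.

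The ligands and lists were chosen with earlier results of these data known. Pathway genes with a mean of at least 1 FPKM, the 3 nearest patterns per ligand and the 3 most abundant markers per list could be named. LOC100524308, LOC100513953, ZP3, ZP4, ZAR1, INHA, AMH, AREG, AMHR2, BMPR2, BMPR1B and TGFBR1 were named after their values were seen. Alternatives were other pseudocounts, filters, scalings, no variance trend, a replicate block and leaving out each sample.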

Additional observations from a re-analysis of the deposited data

How the results depend on the processing

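GDF9 stayed lower in heat-stressed and in NMN-supplemented than in control oocytes in all 17 alternatives, with an unadjusted P under 0.05 in each. Between NMN-supplemented and control oocytes its log2 difference lost its call at a minimum mean of 0.1 FPKM and with no filter (-0.94 in both), with scaling to the same sum without mitochondrial genes (-0.93) and without single samples (range -1.09 to -0.79), and its adjusted P ran from 0.0116 to 0.244. Between heat-stressed and control oocytes the difference ran from -0.95 to -0.42. Scaling to the same sum without mitochondrial genes moved the median of all genes by -0.27 and 0.28 in the comparisons with heat-stressed samples. That sum was 109120 FPKM in heat-stressed sample 1 and 57865 to 62744 in the others, and with LOC100513953 and RN5-8S left out of it too (chosen after seeing the data) the shifts were 0.0048 and -0.0091. Scaling to the full sum without mitochondrial genes reversed NMN-supplemented against heat-stressed oocytes for GDF9 (0.027), BMP15 (0.30) and the row named INHBA (0.11), and heat-stressed against control oocytes for BMP15 (-0.15). Quantile normalization reversed BMP15 too (-0.036 and 0.062). For NMN-supplemented against heat-stressed oocytes the difference without single samples ran from -0.51 to -0.21 for GDF9 and from -0.77 to 0.30 for the row named INHBA, which ran from -1.08 to -0.49 between heat-stressed and control and from -1.55 to -0.49 between NMN-supplemented and control oocytes.

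BMP6 had log2 differences between heat-stressed and control oocytes of 0.29 with a pseudocount of 0.1 FPKM, 0.11 after quantile normalization, 0.016 with the same sum and 0.055 to 0.095 without single samples. Between NMN-supplemented and control oocytes they were 0.32, 0.17 (quantile) and 0.041 to 0.13, and between NMN-supplemented and heat-stressed oocytes 0.062 (quantile), 0.082 (same sum) and -0.034 to 0.056. The ratio of GDF9 to BMP15 kept its direction without each sample (-0.86 to -0.76, -0.40 to -0.15 and -1.20 to -0.96) and after quantile normalization (-0.38, -0.49 and -0.87). Pathway genes with an adjusted P under 0.05 between NMN-supplemented and control oocytes numbered 0 to 5 over 17 alternatives, and at an unadjusted P under 0.05 they numbered 2 to 20, with 2 to 16 between heat-stressed and control and 0 to 7 for NMN-supplemented against heat-stressed oocytes.

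Genes with an adjusted P under 0.05 between NMN-supplemented and control oocytes numbered 86 at a minimum mean of 0.1 FPKM, 546 at 5 FPKM, 0 with no filter (3700 at an unadjusted P under 0.05), 281 with the same sum, 445 with a replicate block and 0 to 798 without single samples. In heat-stressed against control oocytes there were 84 with the same sum, 1 without a variance trend, 1 with the sum taken also without LOC100513953 and RN5-8S and 0 to 1 without single samples. For NMN-supplemented against heat-stressed oocytes these were 38, 1 without a trend and 0 to 2. Genes with an unadjusted P under 0.05 numbered, for a minimum of 0.1 FPKM, 5 FPKM, no filter and the same sum, 1865, 468, 2388 and 562 (heat-stressed against control), 3236, 791, 3700 and 789 (NMN-supplemented against control), and 1161, 266, 1557 and 269 (NMN-supplemented against heat-stressed), and without single samples 648 to 1015, 1233 to 1941 and 327 to 701. Deviations from the group means showed no pairing by replicate number (correlations of -0.032, 0.0080 and -0.014), which does not show that the samples were unmatched. The replicate block changed no call of a ligand (GDF9 limma adjusted P = 0.208, 0.447 and 0.0462). Unless a cause is given above, the cause was not tested.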

Other observations

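LOC100524308, the annotated gene next to GDF9 at chr2:135186366-135188237 on the plus strand, 1914 bases away, was measured at 3.804 and 7.37 FPKM in the controls, 2.36 and 2.89 in heat-stressed oocytes, and 0.925 and 1.33 in NMN-supplemented oocytes. Of all genes tested, 54.7% had no overlap between heat-stressed and control samples and 53.5% between NMN-supplemented and heat-stressed samples. Between NMN-supplemented and control samples the share was 69.9%, and no share was counted for an order through all groups. LOC100524308 had its groups in the same order as GDF9, with no overlap between groups. It fell between NMN-supplemented and control oocytes (log2 difference -1.58, SE 0.28, limma adjusted P = 0.0254), a call lost in 5 of 16 alternative settings, with an adjusted P of 0.104, 0.127 and 0.0979 without control sample 2, NMN-supplemented sample 1 and NMN-supplemented sample 2, and it did not pass the test between heat-stressed and control oocytes (log2 difference -0.81, limma adjusted P = 0.190) or between NMN-supplemented and heat-stressed oocytes (log2 difference -0.77, limma adjusted P = 0.354). It was chosen after its values were seen.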
